A study of Pimephales promelas with 26 samples.

Results

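This account covers 3 transcripts, 1 each of ktn1 (XM_039666693.1), lasp1 (XM_039685815.1) and fbln1 (XM_039647945.1), out of 57299 RefSeq transcripts counted in whole larvae of fathead minnows (Pimephales promelas), a cyprinid used widely to test toxicity in freshwater. The 3 transcripts were chosen by accession after results of these data were known, so their differences between concentrations are given as a description and not tested. All 3 passed the filter on low counts. Larvae had been kept in water with fluoxetine, an inhibitor of serotonin reuptake prescribed against depression, between 6 h and 7 days after fertilization, and each RNA sequencing library came from a pool of 20 whole larvae. The 26 libraries made up 6 groups. Water without fluoxetine and the measured concentrations of 0.74, 3.38 and 10.2 µg/L had 5 libraries each, while the lowest and highest concentrations, 0.19 and 47.2 µg/L, had 3 each. No strain or genotype is given, and the pool, not the larva, is the replicate, so that variation between single larvae cannot be seen. The series title sets concentrations at which transcription begins to change beside effects on the whole animal.

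Kinectin, the product of ktn1, is a long coiled-coil protein of the endoplasmic reticulum membrane that binds the motor protein kinesin and, in mammalian cells, anchors part of the translation machinery there. Lasp1 (LIM and SH3 protein 1) binds actin filaments and is found at focal adhesions, the sites where the cytoskeleton is tied to the surrounding matrix. Fibulin 1, the product of fbln1, is a secreted glycoprotein of basement membranes and elastic fibres that binds fibronectin, laminin and nidogen. All of these roles are known from mammals and other vertebrates.

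The libraries held 13515478 to 27614956 estimated counts in all. The labelled tissue was the whole body, and of 53 marker genes of 12 cell types and tissues, from muscle and liver to neurons and lens, 40 were matched by symbol and 0 of these were at 0 counts in every library. No 2 replicate libraries were alike within counting noise (46 pairs, lowest chi-square divided by its degrees of freedom 14.9). Library fragments, read from the difference between transcript length and effective length, were 236 to 241 bp long in water. They were longer in all 8 libraries at 0.19 µg/L (249 to 259 bp) and 0.74 µg/L (251 to 264 bp) than in any water library. Fragment lengths at 3.38 µg/L (223 to 243 bp), 10.2 µg/L (227 to 248 bp) and 47.2 µg/L (229 to 248 bp) overlapped with those in water. Fragment length and fluoxetine therefore cannot be told apart at 0.19 and 0.74 µg/L. Differences from a fit with fragment length as a covariate are given below as a description, and that fit cannot separate the 2 there.

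Levels differed between the 3 transcripts. Per transcript length, on the deposited TPM scale (counts divided by length and library total), the mean level in water was 54.0 ± 3.65 TPM for lasp1, 13.0 ± 1.57 TPM for ktn1 and 4.12 ± 0.905 TPM for fbln1 (SD, n = 5 each). The fbln1 transcript was the rarest and rested on 78.2 to 372 estimated counts per library. Its counting error was therefore larger than for the other two. The spread between pools was smallest for lasp1, with a coefficient of variation of CPM (counts scaled to a common library total with TMM factors) between 1.31% and 9.95% in the 6 groups. It was between 11.7% and 30.9% for ktn1 and between 8.39% and 22.4% for fbln1.

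The ktn1 transcript was present at 44.9, 36.8, 42.1, 41.2 and 50.5 CPM in water replicates A to E. It was at 133, 96.9 and 80.7 CPM in replicates A to C at 0.19 µg/L, and at 88.3, 93.8, 110, 125 and 114 CPM in replicates A to E at 0.74 µg/L. Each of these 8 exposed libraries lay above every water library. At 3.38 µg/L the values were 29.3, 29.8, 41.5, 59.4 and 49.9 CPM and at 10.2 µg/L 47.1, 36.9, 31.2, 26.6 and 33.1 CPM, so both of these groups overlapped with water. At the highest concentration, 47.2 µg/L, the values were 112, 104 and 86.5 CPM, again above every water library. The level thus did not follow the order of concentration. In order of their means the groups ran from 10.2 µg/L through 3.38 µg/L, water, 47.2 µg/L and 0.19 µg/L to 0.74 µg/L, and of the 5 pairs of neighbours in this order only water and 47.2 µg/L did not overlap.

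Against water, the log2 difference of the ktn1 transcript was 1.26 ± 0.21 at 0.19 µg/L, 1.30 ± 0.19 at 0.74 µg/L and 1.23 ± 0.21 at 47.2 µg/L (SE), which are folds of 2.40, 2.46 and 2.34. The values at 3.38 and 10.2 µg/L were -0.04 ± 0.18 and -0.30 ± 0.19 (SE). The higher level was therefore of nearly the same size at the 2 lowest concentrations and at the highest. The 5 comparisons share the same water libraries.

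The lasp1 transcript was present at 69.4, 66.3, 74.0, 72.1 and 66.3 CPM in water replicates A to E. At 0.19 µg/L it was at 92.3, 91.9 and 90.1 CPM and at 0.74 µg/L at 86.7, 86.5, 82.5, 95.3 and 90.6 CPM. These 8 libraries lay above every water library. Values at 3.38 µg/L were 64.6, 69.2, 69.6, 69.2 and 61.3 CPM, and those at 10.2 µg/L were 64.3, 63.8, 74.3, 75.0 and 60.2 CPM, both overlapping with water. The group with the highest mean was 47.2 µg/L, at 103, 96.0 and 94.2 CPM, although replicate D at 0.74 µg/L lay above the lowest of these. The groups ran from 3.38 µg/L through 10.2 µg/L, water, 0.74 µg/L and 0.19 µg/L to 47.2 µg/L, and neighbours overlapped except water with 0.74 µg/L and 0.19 with 47.2 µg/L.

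These lasp1 differences were small in size. The log2 difference from water was 0.39 ± 0.07 at 0.19 µg/L, 0.34 ± 0.06 at 0.74 µg/L and 0.49 ± 0.07 at 47.2 µg/L (SE), or folds of 1.31, 1.27 and 1.41. At 3.38 and 10.2 µg/L it was -0.06 ± 0.06 and -0.04 ± 0.06 (SE). In a fit with fragment length as covariate the difference at 0.74 µg/L was 0.24 ± 0.08 (SE).

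The fbln1 transcript was present at 6.79, 8.88, 10.5, 9.90 and 6.19 CPM in water replicates A to E. It was at 21.9, 14.6 and 17 CPM at 0.19 µg/L, above every water library. At 0.74 µg/L it was at 10.9, 13.6, 15.0, 11.9 and 9.57 CPM, and replicate E lay within the range of water. The values were 5.98, 6.88, 6.72, 6.18 and 7.37 CPM at 3.38 µg/L and 4.91, 7.19, 7.96, 8.49 and 5.72 CPM at 10.2 µg/L, overlapping with the lower part of the water range. At 47.2 µg/L they were 11.1, 13.6 and 15.5 CPM, above every water library. The groups ran from 3.38 µg/L through 10.2 µg/L, water, 0.74 µg/L and 47.2 µg/L to 0.19 µg/L, and each group overlapped with its neighbour in this order.

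The fbln1 transcript was highest at the lowest concentration, unlike the other two. Its log2 difference from water was 1.08 ± 0.19 at 0.19 µg/L, 0.53 ± 0.17 at 0.74 µg/L and 0.66 ± 0.20 at 47.2 µg/L (SE), or folds of 2.11, 1.44 and 1.59. Below 0 were the values at 3.38 and 10.2 µg/L, -0.35 ± 0.17 and -0.30 ± 0.17 (SE). Whether more of the cells that make fibulin 1 or more of its RNA per cell was present cannot be told apart in whole larvae, and this holds for each transcript described here.

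**Figure D1:**
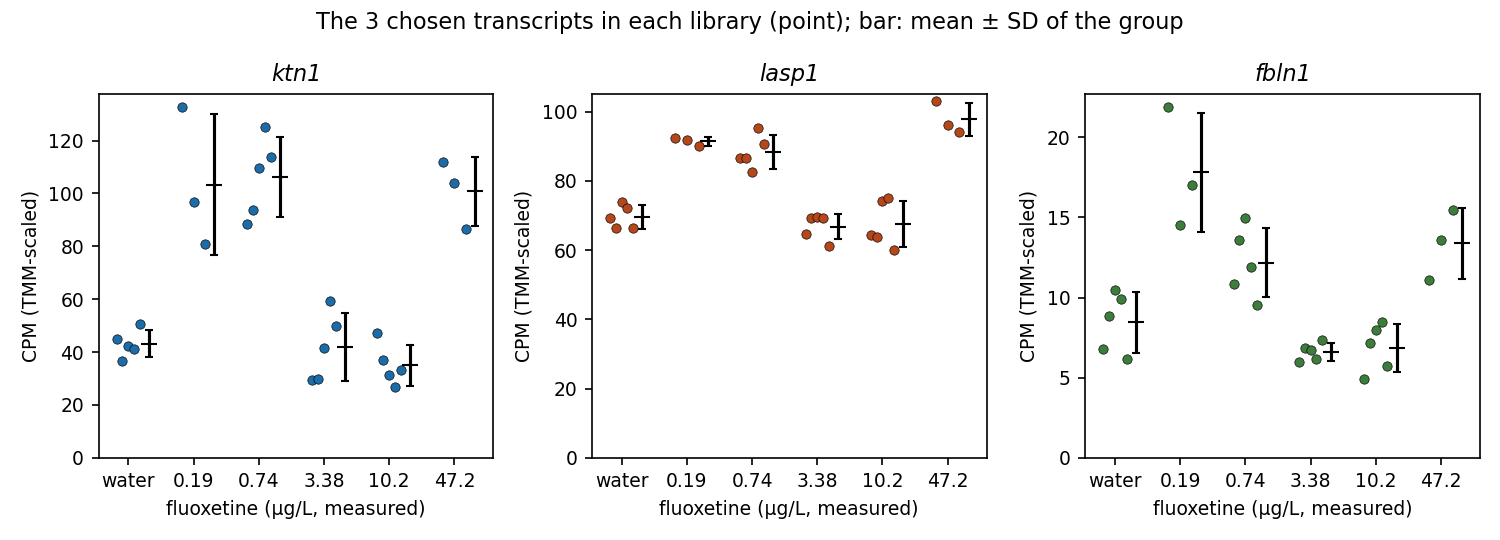
Level of each of the 3 transcripts (CPM, TMM-scaled, linear axis from 0) in every library, by measured fluoxetine concentration; points are libraries in replicate order and bars are the group mean ± SD (n = 3 or 5). For ktn1 and lasp1 the libraries at 0.19, 0.74 and 47.2 µg/L sit above those in water and at 3.38 and 10.2 µg/L, from 80.7 CPM upwards against at most 59.4 CPM for ktn1, and for fbln1 10 of these 11 do. The transcripts were chosen on these contrasts and the grouping was seen in these values. The share of all transcripts that separate in this way is not given, so nothing is read from it.

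Across the 26 libraries, the 11 libraries at 0.19, 0.74 and 47.2 µg/L did not overlap with the other 15 for ktn1 (80.7 to 133 CPM against 26.6 to 59.4 CPM) or for lasp1 (82.5 to 103 CPM against 60.2 to 75.0 CPM). For fbln1, 10 of the 11 lay above all 15. This grouping of concentrations was seen in these values and is not a set of groups of the study. The share of all transcripts that separate in this way is not given here, so nothing is read from the separation. By the criterion of an edgeR quasi-likelihood test at an adjusted p below 0.05 over the 43837 transcripts tested, all 3 transcripts were called higher at 0.19 µg/L, where 0.0228% of transcripts were called higher and 0.0502% in either direction. At 0.74 µg/L 2 were called (ktn1 and lasp1, 0.0547% higher and 0.089% in either direction) and the same 2 at 47.2 µg/L (0.073% and 0.103%). At 3.38 and 10.2 µg/L 0 of the 3 were called, as were 0% of all transcripts with edgeR. At an unadjusted p below 0.05 there were 4.17% and 5.34% of all transcripts at these 2 concentrations, and DESeq2 called 70 and 99. Nothing is read from the counts of the 3, since they were chosen on these contrasts.

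The calls depended on which libraries were fitted, except that of ktn1 at 0.74 µg/L. That call was kept in all 26 fits without 1 library each, and was lost with fragment length as a covariate. The ktn1 call at 0.19 µg/L was lost without water replicate A, B, C or D or replicate A or B at 0.19 µg/L, with log2 differences from 1.03 to 1.30 in those fits, and at 47.2 µg/L without water replicate B (1.17) or replicate A (1.14). The lasp1 call at 0.19 µg/L was lost without any 1 water library, any 1 library at 0.19 µg/L, or replicate B or C at 47.2 µg/L, at log2 differences from 0.37 to 0.42. At 0.74 µg/L it was lost without water replicate A, B, D or E or replicate A, B, D or E at 0.74 µg/L (0.31 to 0.36), and at 47.2 µg/L without replicate A there (0.45). The fbln1 call at 0.19 µg/L was lost without any 1 water library, replicate A or C at 0.19 µg/L, or replicate B at 47.2 µg/L (0.89 to 1.17). The direction was kept in each of these fits.

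The differences with fragment length as a covariate were 1.28 ± 0.26 and 1.32 ± 0.28 for ktn1 at 0.19 and 0.74 µg/L, 0.31 ± 0.08 and 0.24 ± 0.08 for lasp1, and 0.97 ± 0.24 and 0.39 ± 0.25 for fbln1 (log2, SE). The ktn1 differences were about as large as without it, with larger standard errors, and those of lasp1 and fbln1 were smaller. In that fit 0 of the 3 were called at 0.19 and 0.74 µg/L, where 0.00456% and 0.00228% of transcripts were called higher, and ktn1 and lasp1 were called at 47.2 µg/L (0.0547%). When only water and 1 concentration were fitted, ktn1 was called at 0.74 µg/L (0.0798% of transcripts higher), and 0 of the 3 at 0.19 µg/L (0.00254%) and 47.2 µg/L (0%). With replicate B left out at both 0.19 µg/L and 47.2 µg/L, ktn1 was called at 0.74 µg/L (0.0291%), lasp1 at 47.2 µg/L (0.0559%) and 0 at 0.19 µg/L (0.00894%). In the authors' deposited table the log2 fold changes were 1.26, 1.30, -0.04, -0.30 and 1.23 for ktn1 in order of concentration. The authors' deposited table gave 0.39, 0.34, -0.06, -0.04 and 0.49 for lasp1, and 1.08, 0.52, -0.35, -0.29 and 0.67 for fbln1.

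Both ktn1 and fbln1 have further RefSeq transcripts, which were not among those chosen. Kallisto divides reads that several transcripts share, so the division between transcripts of 1 gene is less certain than their sum. Shared reads assigned to the chosen transcript are not assigned to the others. The tests of the others below are therefore not free of the choice. A miss in them does not show a change particular to the chosen transcript. The ktn1 gene has 4 transcripts, of 4672 bases (the chosen one), 4757, 4754 and 4670 bases. The fbln1 gene also has 4, of 3033 bases (the chosen one), 2485, 3030 and 3782 bases. For lasp1 1 transcript of 2238 bases was matched. Only 55.1% of the transcripts were paired with a gene, so any lasp1 transcript among the unpaired ones is not seen here. Its estimated count was whole within 0.01 in 19 of 26 libraries, against 1 for ktn1 and 0 for fbln1. In the other 7 libraries the lasp1 count was fractional, so some reads there were divided with another transcript.

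Of the other ktn1 transcripts, XM_039666685.1 was the most abundant. By group means it was above the chosen one in water, where that averaged 43.1 CPM. It was below at 0.19, 0.74 and 47.2 µg/L, where the chosen one averaged 103, 106 and 101 CPM. Single libraries went the other way. It was below the chosen one in water replicate A (40.0 against 44.9 CPM) and above it in replicate C at 0.19 µg/L (90.6 against 80.7 CPM). It was at 58.0 ± 11.2 CPM in water (SD, n = 5), at 73.4 ± 14.9 CPM at 0.19 µg/L (SD, n = 3), at 70.0 ± 10.5 CPM at 0.74 µg/L (SD, n = 5) and at 74.7 ± 7.54 CPM at 47.2 µg/L (SD, n = 3). Its log2 differences from water at these concentrations were 0.34 ± 0.23, 0.27 ± 0.20 and 0.37 ± 0.23 (SE), with edgeR adjusted p of 0.741, 0.893 and 0.677. None passed the test. The other two, XM_039666679.1 and XM_039666701.1, averaged 1.90 and 7.16 CPM and ranged from near 0 to 17.4 CPM (the latter) within the water group alone. Such a spread between replicates leaves standard errors of 1.33 to 1.65 on the log2 scale, at which no difference of the sizes above was detectable.

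The 3 other ktn1 transcripts together were at 68.6 ± 8.48 CPM in water, 81.6 ± 15.6 CPM at 0.19 µg/L, 75.3 ± 9.18 CPM at 0.74 µg/L and 81.6 ± 9.84 CPM at 47.2 µg/L (SD). The log2 differences of this sum were 0.25 ± 0.17, 0.13 ± 0.15 and 0.25 ± 0.17 (SE; edgeR adjusted p of 0.757, 1 and 0.737), and the groups overlapped with water. At 3.38 and 10.2 µg/L they were -0.02 ± 0.15 and 0.03 ± 0.15. When fragment length was a covariate, this sum lay below water at 0.19 and 0.74 µg/L (-0.10 and -0.33), and it was not called in any of the fits described.

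The chosen transcript made up 34.5% to 43.3% of ktn1 counts in water, and 46.5% to 67.5% at 0.19 µg/L, 55.2% to 65.2% at 0.74 µg/L and 54.1% to 56.8% at 47.2 µg/L. At 3.38 and 10.2 µg/L it made up 27.1% to 44.4% and 24.8% to 44.0%. Every library of the first 3 of these concentrations thus had a larger share than any water library. These shares contain the chosen counts and are given as a description. How many other genes have shares that separate in this way is not given, so nothing is read from it. Summed over its 4 transcripts, ktn1 was at 112 ± 10.5 CPM in water and at 185 ± 11.5, 182 ± 18.7 and 183 ± 22.4 CPM at 0.19, 0.74 and 47.2 µg/L (SD), a log2 difference of 0.72 ± 0.13, 0.70 ± 0.12 and 0.71 ± 0.13 (SE).

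**Figure D2:**
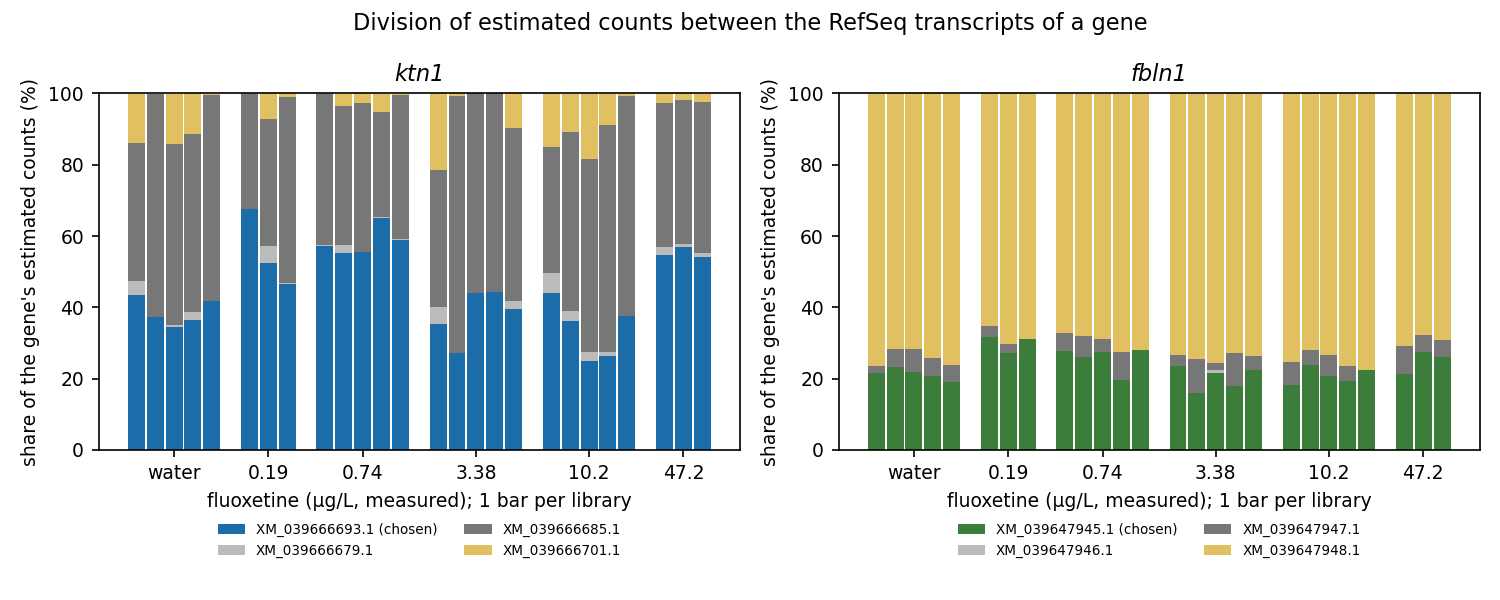
Share of each gene's estimated counts (%) assigned to each of its 4 RefSeq transcripts, 1 stacked bar per library, by measured fluoxetine concentration. The chosen ktn1 transcript takes 34.5% to 43.3% in water and 55.2% to 65.2% at 0.74 µg/L, while the chosen fbln1 transcript stays a minority in every library.

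The chosen fbln1 transcript was a minority form, at 18.9% to 23.1% of fbln1 counts in water, 27.3% to 31.6% at 0.19 µg/L, 19.6% to 28.1% at 0.74 µg/L and 21.3% to 27.5% at 47.2 µg/L. The main form was XM_039647948.1, at 29.4 ± 5.46 CPM in water (SD, n = 5) and 40.1 ± 4.35 CPM at 0.19 µg/L (SD, n = 3). Its log2 differences were 0.45 ± 0.20 at 0.19 µg/L, 0.20 ± 0.18 at 0.74 µg/L and 0.34 ± 0.20 at 47.2 µg/L (SE; edgeR adjusted p of 0.541, 0.971 and 0.635), in the direction of the chosen transcript without passing the test. Those at 3.38 and 10.2 µg/L were both -0.25 ± 0.18 (SE; edgeR adjusted p = 1). XM_039647947.1 averaged 1.99 CPM and was not called. XM_039647946.1 had counts in 1 library only, at 0.239 CPM in 1 library at 3.38 µg/L, and was not tested.

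The 3 other fbln1 transcripts together differed from water by 0.40 ± 0.22, 0.20 ± 0.19, -0.23 ± 0.19, -0.26 ± 0.19 and 0.37 ± 0.22 on the log2 scale in order of concentration (SE; edgeR adjusted p of 0.636, 0.985, 1, 1 and 0.651). The signs were those of the chosen transcript at all 5 concentrations. In all, 0 of 25 edgeR tests of the 5 other transcripts and 0 of 10 tests of the 2 sums passed. At an unadjusted p below 0.05 there were 1 and 0, and DESeq2 called 0 of each. These tests are not free of the choice, since shared reads are divided with the chosen transcripts.

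**Figure D3:**
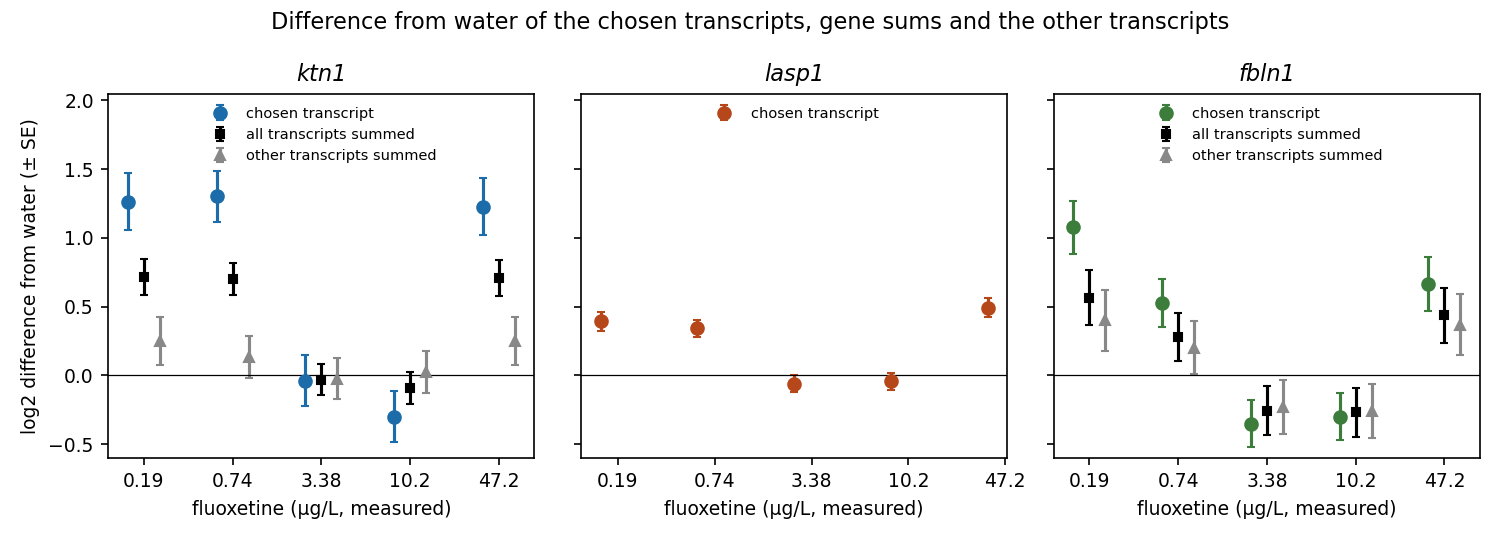
Log2 difference from water (± SE, edgeR fit of all 26 libraries) of the chosen transcript, of all transcripts of its gene summed and of its other transcripts summed, by measured fluoxetine concentration. For ktn1 at 0.74 µg/L these are 1.30, 0.70 and 0.13; lasp1 was matched to 1 transcript and so has 1 series.

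The 3 chosen transcripts ran together across the 26 libraries, with Pearson's r on log2 CPM of 0.84 for ktn1 with lasp1, 0.75 for ktn1 with fbln1 and 0.83 for lasp1 with fbln1. These values carry the differences between groups on which the transcripts were chosen and are given as a description. Deviations of each library from its group mean do not carry these differences, although their spread enters any test of the contrasts. Such deviations gave smaller correlations, none of which passed a permutation test. Within groups, Pearson's r was -0.09 for ktn1 with lasp1 (Spearman's rho -0.06), -0.25 for ktn1 with fbln1 (rho -0.24) and 0.26 for lasp1 with fbln1 (rho 0.21), each over n = 26 libraries. The permutation p-values (100000 resamples within groups, two-sided) were 0.709, 0.222 and 0.299 for r and 0.792, 0.238 and 0.375 for rho. Adjusted over the 6 relations computed, they were 0.851, 0.597 and 0.597 for r and 0.95, 0.635 and 0.635 for rho by permutation. Leaving out the 2 libraries farthest from the median of the first transcript gave r of -0.22, -0.31 and 0.08.

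Fragment length within groups had Pearson's r of -0.01 with ktn1, 0.39 with lasp1 and 0.16 with fbln1 (rho 0.00, 0.32 and 0.17; n = 26). The permutation p-values were 0.984, 0.114 and 0.478 for r and 0.998, 0.155 and 0.424 for rho, and adjusted over the 6 relations 0.984, 0.597 and 0.716 for r and 0.998, 0.635 and 0.635 for rho. Without the 2 libraries farthest from the median in fragment length r was -0.16, 0.24 and 0.01. None of the 6 relations passed the test, and a p that misses the threshold does not show that the values are unrelated.

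**Figure D4:**
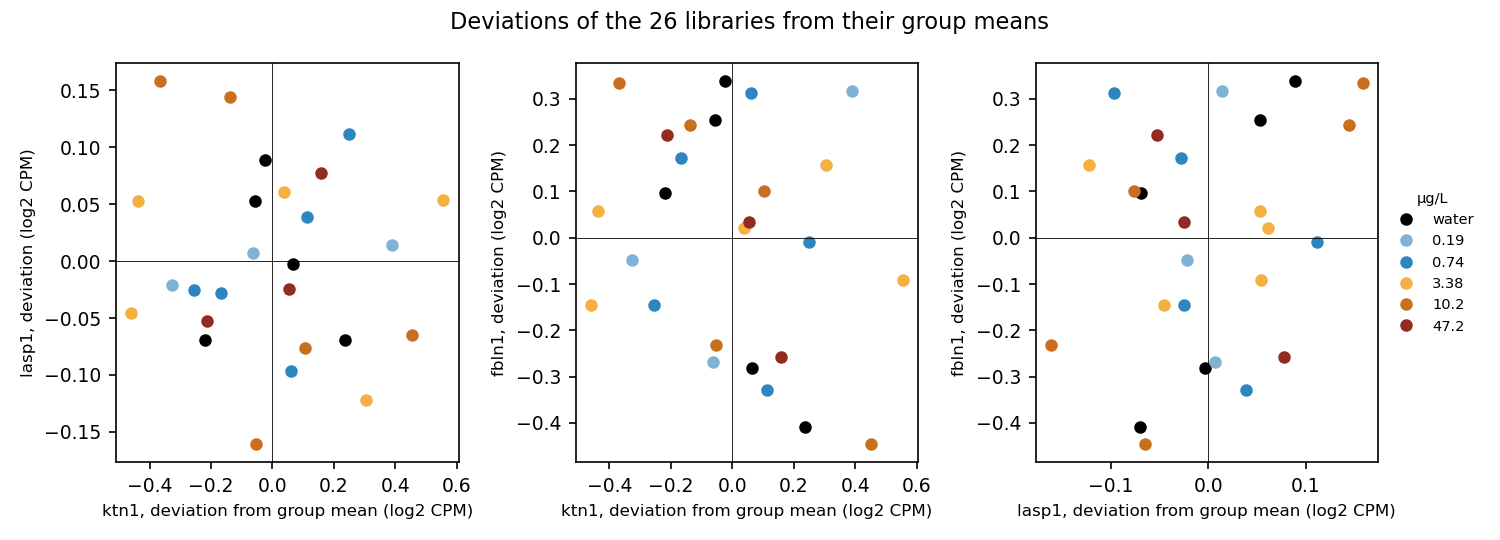
Deviation of each of the 26 libraries from its group mean (log2 CPM) for each pair of the 3 transcripts, coloured by fluoxetine concentration (µg/L). The points scatter without a clear slope, with r of -0.09, -0.25 and 0.26.

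Of 21446 other transcripts that carried a symbol and averaged 1 CPM or more, those most like the chosen ones were found by Pearson's r of log2 CPM over the same 26 libraries. For ktn1 they were slc22a16 (an organic cation and carnitine transporter, r = 0.87), hpca (a neuronal calcium sensor, 0.87), atp5mc3b (a subunit of the mitochondrial ATP synthase, 0.87), ino80b (a chromatin remodelling subunit, 0.86) and glb1l2 (a relative of beta-galactosidase, 0.85). The lasp1 transcript stood 7th in likeness to ktn1. For lasp1 itself they were kctd5a (an adaptor of a ubiquitin ligase, 0.95), tmem59 (a membrane protein, 0.94), sdcbp2 (a syntenin, 0.93), mmp14b (a membrane-bound matrix metalloproteinase, 0.92) and jak1 (a cytokine receptor kinase, 0.92). For fbln1 they were vcanb (versican, a large matrix proteoglycan, 0.92), and2 and and1 (actinodins, fibre proteins of the zebrafish fin fold, 0.91 and 0.89), one transcript of postnb (periostin, 0.89) and hmcn2 (hemicentin, 0.88). None of the 5 nearest to 1 of the chosen transcripts was among the 5 nearest to another.

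The level of vcanb was 37.8 CPM in water, 63.4 CPM at 0.74 µg/L and 64.6 CPM at 47.2 µg/L (group means), and that of kctd5a was 40.0, 45.8 and 55.2 CPM. These transcripts were picked for their likeness over all libraries, so their differences between groups are a description.

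Other genes of the same structures were taken from 7 lists of 237 symbols, of which 182 were matched and gave 276 tested transcripts. At 0.19 µg/L 0 of the 276 were called by edgeR over all transcripts, against 58 at an unadjusted p below 0.05 (21% of them, beside 8.75% of all transcripts) and 6 by DESeq2. At 0.74 µg/L 0 were called, against 37 unadjusted (13.4%, beside 8.1%) and 3 by DESeq2. At 3.38 and 10.2 µg/L 0 were called with either tool. Unadjusted there were 11 at 3.38 µg/L (3.99%, beside 4.17% of all transcripts) and 37 at 10.2 µg/L (13.4%, beside 5.34%). At 47.2 µg/L 2 were called higher and 0 lower (0.725%, beside 0.103% of all transcripts), with 47 unadjusted (17%, beside 9.35%) and 11 by DESeq2. Over the 52606 transcripts it fitted, DESeq2 called 559, 479 and 755 at 0.19, 0.74 and 47.2 µg/L. With the replicate letter as a block, edgeR called the listed sparc at 0.19 µg/L and enah at 0.74 µg/L. Over all transcripts that fit called 78, 103 and 182 at 0.19, 0.74 and 47.2 µg/L.

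Both called transcripts belong to the interstitial matrix list. The transcript of prelp, a small leucine-rich proteoglycan of connective tissue, rose from 15.7 ± 2.72 CPM in water (SD, n = 5) to 35.4 ± 7.68 CPM at 47.2 µg/L (SD, n = 3), a log2 difference of 1.17 ± 0.18 (SE; edgeR adjusted p = 0.0105). That of mmp14b rose from 53.0 ± 5.30 CPM to 88.5 ± 12.7 CPM, a log2 difference of 0.74 ± 0.14 (SE; edgeR adjusted p = 0.0433). The prelp call was lost without replicate A at 47.2 µg/L, and that of mmp14b was kept in 11 of 26 fits without 1 library each. With 1 library left out the number of listed transcripts called at 47.2 µg/L ranged from 0 to 3, and was 0 without replicate A there. At 0.19 µg/L the same 2 had log2 differences of 0.76 ± 0.18 and 0.49 ± 0.14 (SE; edgeR adjusted p of 0.171 and 0.296).

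Around fibulin 1, the list of fibulins and elastic fibre proteins had a median log2 difference of 0.44 at 0.19 µg/L, 0.18 at 0.74 µg/L and 0.36 at 47.2 µg/L over 32 transcripts, and of -0.20 and -0.32 at 3.38 and 10.2 µg/L. Over all 43837 transcripts the medians were between -0.01 and 0.01. Above 0 lay 26, 27 and 28 of the 32 at the first 3 of these concentrations and 9 and 5 at the other two, and 0 were called with edgeR at any concentration. Its most abundant members were the microfibril protein gene mfap2 (0.18 ± 0.18 at 0.19 µg/L), the fibulin 4 gene efemp2a (-0.04 ± 0.19) and the elastic fibre interfacer gene emilin1b (0.51 ± 0.17), none of which passed the test.

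The interstitial matrix list had medians of 0.49, 0.30, -0.11, -0.29 and 0.49 in order of concentration over 48 transcripts. Its most abundant members were the collagen I genes col1a1a, at 1627 ± 494 CPM in water and 2842 ± 482 CPM at 0.19 µg/L (SD; log2 difference 0.81 ± 0.33, edgeR adjusted p = 0.497), and col1a2 (0.49 ± 0.28), and postnb (0.40 ± 0.19 for its most abundant transcript). The basement membrane list had medians of 0.40, 0.22, -0.08, -0.20 and 0.26 over 18 transcripts. There sparc, a collagen-binding glycoprotein gene, was at 390 ± 83.2 CPM in water and 641 ± 10.6 CPM at 0.19 µg/L (SD; log2 difference 0.72 ± 0.20, edgeR adjusted p = 0.279). The basement membrane glycoprotein gene nid1a (0.28 ± 0.11) and the collagen IV gene col4a5 (0.72 ± 0.30) were next in abundance. In the edgeR fit without replicate letters 0 of the 18 were called, while DESeq2 called sparc at 0.19 µg/L (DESeq2 adjusted p = 0.0413). DESeq2 also called a listed laminin gene, lamb1b, at 0.19 and 47.2 µg/L (log2 differences 0.77 ± 0.19 and 0.64 ± 0.19, DESeq2 adjusted p of 0.00888 and 0.0426). With the replicate letter as a block, edgeR called sparc at 0.19 and 47.2 µg/L (edgeR adjusted p of 0.0133 and 0.0258).

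Marker lists of 5 of the 12 cell types and tissues lay above every water library at 1 or more concentrations, and 0 of their transcripts were called with edgeR. The share of all transcripts that do so is not given here, so nothing is read from this count. The summed level of 7 matched fibroblast genes of 8, none at 0, was 1963 to 4400 CPM in water and 4447 to 5639 CPM at 0.19 µg/L. It overlapped with water at 0.74 µg/L (3342 to 5722 CPM), 47.2 µg/L (2944 to 5491 CPM), 3.38 µg/L (1891 to 4213 CPM) and 10.2 µg/L (1731 to 4045 CPM). Taken singly, all 8 fibroblast transcripts had a log2 difference above 0 at 0.19, 0.74 and 47.2 µg/L (medians 0.54, 0.32 and 0.42). At 3.38 and 10.2 µg/L 1 and 0 of the 8 did (medians -0.07 and -0.31). Of the 8 fibroblast genes 6 also belong to the matrix lists, so these are not separate measurements.

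Summed markers of cartilage and bone were at 470 to 933 CPM in water and at 974 to 1172 CPM at 0.19 µg/L, and overlapped with water at the other concentrations (723 to 1300 CPM at 0.74 µg/L and 662 to 1137 CPM at 47.2 µg/L). Those of epidermis were at 3507 to 4668 CPM in water, 4881 to 5739 CPM at 0.19 µg/L and 4670 to 5599 CPM at 0.74 µg/L, and overlapped with water at 47.2 µg/L (3071 to 4269 CPM). Those of endothelium were at 61.2 to 72.4 CPM in water, 82.7 to 87.9 CPM at 0.19 µg/L and 84.5 to 88.6 CPM at 47.2 µg/L, and overlapped with water at 0.74 µg/L (66.0 to 82.5 CPM). Only epidermis markers were thus above every water library at 0.74 µg/L, and narrowly (4670 against 4668 CPM). Of the 3 epidermis transcripts tested, 2 had a log2 difference above 0 there. The macrophage list rested on 1 matched gene of 3, at 1.21 to 2.60 CPM in water and 2.90 to 6.09 CPM at 47.2 µg/L. Its lowest value was 0 CPM at both 0.19 and 10.2 µg/L, so this list is near the floor. The other 7 lists, skeletal muscle among them (10550 to 15530 CPM in water), overlapped with water at every concentration. Among these was the neuron list. Its 16 transcripts had median log2 differences of -0.19, -0.13, 0.11, 0.24 and -0.18 in order of concentration. Of the 16, 3, 6, 12, 12 and 5 lay above 0. For cartilage and bone 5, 5, 0, 0 and 4 of 5 transcripts did, and for endothelium 4, 4, 1, 1 and 4 of 4. The part of these cell types in the values of the 3 chosen transcripts was not tested.

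Around lasp1, the list of actin-binding and focal adhesion genes had medians of 0.17, 0.07, -0.08, -0.22 and 0.18 in order of concentration over 74 transcripts. Actin and its assembly factors had medians of 0.17, 0.11, -0.09, -0.12 and 0.15 over 35. In the second list 29, 24 and 31 of 35 lay above 0 at 0.19, 0.74 and 47.2 µg/L and 8 and 4 at 3.38 and 10.2 µg/L. The cytoplasmic actin gene actb2 was at 3697 ± 298 CPM in water and 4641 ± 368 CPM at 0.74 µg/L (SD, n = 5 each), a log2 difference of 0.33 ± 0.09 that did not pass (SE; edgeR adjusted p = 0.219). DESeq2 called actb2 there (DESeq2 adjusted p = 0.023). At 0.74 µg/L DESeq2 also called 2 listed transcripts lower, 1 of the actin regulator gene enah (-0.41 ± 0.08) and 1 of actn4 (-7.52 ± 1.62). The edgeR fit of all 26 libraries without replicate letters called neither. Levels of the actn4 transcript are not given here, so nothing is read from the size of its difference. The muscle actin gene actc1b (0.11 ± 0.10) and the actin-sequestering thymosin gene tmsb4x (0.14 ± 0.07) were the other most abundant members at that concentration. In the first list the most abundant were the alpha-actinin genes actn3a (0.06 ± 0.09) and actn3b (0.33 ± 0.16) and the LIM domain gene fhl2a (0.21 ± 0.11), and none passed.

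Around ktn1, list medians ran from -0.14 to 0.07. Of the kinesin-1 transcripts, 12, 15, 18, 19 and 9 of 31 lay above 0 in order of concentration. For the endoplasmic reticulum list 20, 19, 19, 20 and 24 of 38 did. Kinesin-1 and its adaptors had medians of -0.08, -0.07, 0.05, 0.07 and -0.14 over 31 transcripts, and proteins that shape the endoplasmic reticulum or bind ribosomes there had medians of 0.01, -0.01, -0.00, 0.02 and 0.05 over 38. The kinesin heavy chain genes kif5aa and kif5bb differed from water by -0.03 ± 0.07 and -0.02 ± 0.06 at 47.2 µg/L, and the light chain gene klc1a by 0.06 ± 0.08 (log2, SE). The translocon genes sec61g and sec61b differed by -0.14 ± 0.08 and 0.02 ± 0.09 and eef1da, which encodes the elongation factor subunit that kinectin anchors in mammalian cells, by 0.11 ± 0.14. These had an edgeR adjusted p of at least 0.622. DESeq2 called the listed endoplasmic reticulum gene arl6ip1 at 47.2 µg/L (0.16 ± 0.04, DESeq2 adjusted p = 0.00737). At 0.74 µg/L, where the ktn1 difference was largest, the same 6 differed by 0.19 ± 0.06 (kif5aa), -0.07 ± 0.06 (kif5bb), 0.13 ± 0.07 (klc1a), -0.18 ± 0.07 (sec61g), 0.08 ± 0.08 (sec61b) and 0.05 ± 0.12 (eef1da), with an edgeR adjusted p of at least 0.363. No difference between the lists was tested.

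**Figure D5:**
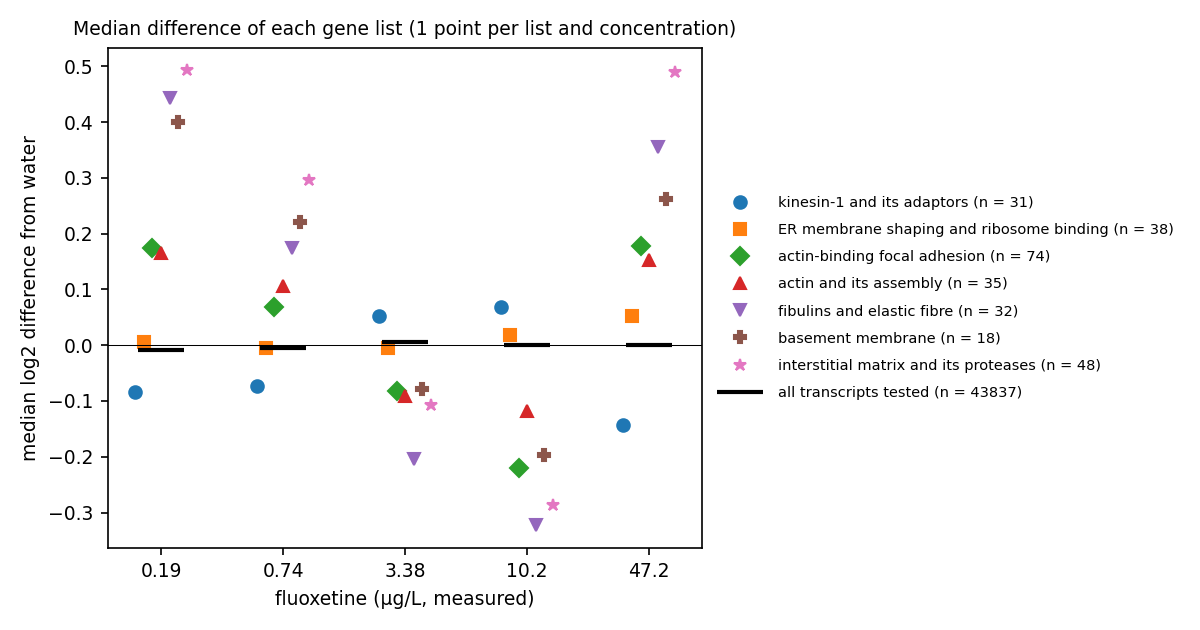
Median log2 difference from water of each of the 7 gene lists and of all 43837 transcripts tested (black bars), by measured fluoxetine concentration, with the number of transcripts in each list. The 3 matrix lists lie highest at 0.19, 0.74 and 47.2 µg/L, from 0.18 to 0.49. The 2 lists around ktn1 run from -0.14 to 0.07.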

How the data were processed

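RNA was measured in 26 libraries of pooled whole larvae, made with poly(A) selection and a directional kit, per the labels' protocols. Per the submitters' processing notes, Trimmomatic 0.38, kallisto and DESeq2 were used; the index, its build and the other 2 versions were not given in the sources used here. Deposited were estimated counts for each RefSeq transcript, by library and in 1 joint table (largest difference 5e-08), with TPM values, transcript length and effective length. The authors' deposited comparison tables hold, per the file headers, a mean normalized count (signal), log2 fold changes with standard errors, a test statistic (score) and p-values; only the log2 fold changes are quoted.

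The transcripts, the gene lists and the tests were chosen with earlier results of these data known. Accessions without version were matched to the reference gene table of assembly fPimPro1.hap1.1, which paired 31554 of 57299 (55.1%) and carried 82.6% of counts. Estimated counts were rounded, filtered with filterByExpr (99.92% of counts kept) and scaled by TMM (factors 0.951 to 1.04). A robust edgeR 4.0.16 quasi-likelihood model (limma 3.58.1, R 4.3.3) was fitted to all 26 libraries, two-sided, with Benjamini-Hochberg adjustment over 43837 transcripts and a threshold of 0.05. It was tested on simulated data. DESeq2 1.42.0 was an alternative. Levels are CPM ± SD, correlations used log2 CPM with a prior count of 2 (NumPy 2.4.6, SciPy 1.17.1), and fragment length was the median of length minus effective length over transcripts of at least 3000 bases. Named beside the chosen transcripts were the other transcripts of their genes, listed transcripts that were called, the 3 most abundant by TPM in each list, and the 5 most alike. Each replicate was its own set of embryos, per the labels. P-values measure the spread between these pools, and counts carry no molecular identifiers.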

Additional observations from a re-analysis of the deposited data

Results flagged for a closer look

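No library of the 3 chosen transcripts, or of the sums over ktn1 and fbln1 transcripts, stood far enough from the others of its group to be singled out by Dixon's criterion, in 28 groups of 5 libraries. Groups of 3 libraries (0.19 and 47.2 µg/L) were not tested in this way.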

How the results depend on the processing

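The log2 differences of the 3 chosen transcripts moved by less than the spread between replicates in each alternative, with these exceptions. Summed per gene, ktn1 differed from water by 0.72, 0.70 and 0.71 at 0.19, 0.74 and 47.2 µg/L and fbln1 by 0.57 at 0.19 µg/L. With fragment length as a covariate, lasp1 differed by 0.24 at 0.74 µg/L, and the sum of the other ktn1 transcripts turned sign at 0.19, 0.74 and 3.38 µg/L (-0.10, -0.33 and 0.011), as did that of the other fbln1 transcripts at 0.74 µg/L (-0.056). The cause was not tested. With TPM the within-group correlation of fragment length and ktn1 was 0.0042. DESeq2 called fbln1 at 47.2 µg/L as well.

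Listed transcripts called at 0.19, 0.74 and 47.2 µg/L numbered 6, 3 and 11 with DESeq2. With sums per gene there was 1 at 0.74 µg/L and there were 4 at 47.2 µg/L, where no count filter gave 1 and fitting only water and that concentration gave 0. Over all transcripts, 22, 39 and 45 calls at these 3 concentrations became 559, 479 and 755 with DESeq2, 3, 1 and 34 with the covariate, 2, 39 and 0 in fits of 2 groups, and 23 and 29 (0.74 and 47.2 µg/L) with no filter.

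Libraries with the same replicate letter were more alike than those with other letters, though their correlations were low. Their deviations correlated between -0.023 and 0.133 (57 pairs, median 0.054), against a median of -0.011 over 222 pairs with other letters. Of 26 libraries 25 were most like their own letter on average. The fit used for the values above did not include the letter, and the permutations within groups did not keep it. With the letter as a block, listed calls were 1 (sparc), 1 (enah) and 5 (sparc, mmp14a, mmp14b, prelp and fmoda) and all calls 78, 103 and 182 at 0.19, 0.74 and 47.2 µg/L, and the calls of the chosen transcripts did not change.

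Leaving out 1 library at a time, differences in order of concentration ranged from 1.03 to 1.41, 1.23 to 1.36, -0.20 to 0.07, -0.43 to -0.22 and 1.14 to 1.32 for ktn1. For lasp1 they ranged from 0.37 to 0.42, 0.31 to 0.37, -0.08 to -0.03, -0.08 to -0.01 and 0.45 to 0.52, and for fbln1 from 0.89 to 1.19, 0.43 to 0.62, -0.45 to -0.26, -0.40 to -0.20 and 0.55 to 0.78. The other ktn1 transcripts ranged from -0.096 to 0.054 at 3.38 µg/L and from -0.11 to 0.10 at 10.2 µg/L. Listed calls ranged from 0 to 1 at 0.74 µg/L, where enah, an actin regulator, was called lower without replicate D there or replicate B at 3.38 µg/L, and from 0 to 3 at 47.2 µg/L. Within-group correlations ranged from -0.18 to 0.053 (ktn1 with lasp1) and from -0.25 to 0.10 (fragment length with ktn1). Groups of 3 libraries and the low counts of fbln1 limit what can be detected.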
